A study of Mus musculus with 5 samples.

Results

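Cyclic AMP signalling in CD4 T cells was followed here through 8 genes: the receptor genes Vipr1 and Ptger4, the phosphodiesterase genes Pde2a, Pde3b, Pde4b, Pde4d and Pde7a, and the transcription factor gene Crem. The genes were found by the RefSeq accessions of their probes, and make up 8 of the 21366 mouse genes measured, with 16 probes of the 28331 that could be named. Pde2a and Vipr1 had been chosen by their signals in rested and stimulated cultures, for large differences with rest, so their values in those comparisons are a description of the choice and carry no weight as a result. The material was naive splenic CD4 T cells of C57BL/6 mice cultured in 5 ways, each measured on 1 single-colour Agilent array, so no comparison has a replicate, a test or a p-value.

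Th1 cells had been stimulated with anti-CD3/CD28 for 4 days in IL-2 and IL-12 with anti-IL-4. The rested culture was made from Th1 cells kept for 4 further days in IL-2 with anti-IFN-g/IL-4, without the CD3/CD28 stimulus. Th1reg cells were rested cells moved into the iTreg condition for 4 days (anti-CD3/CD28, IL-2 and TGF-b, with anti-IFNg/IL-4), 12 days of culture in all. Th1+TGFb cells were Th1 cells placed in that same condition with no rest, 8 days in all. iTreg cells were naive cells cultured in the iTreg condition for 4 days. All 5 cultures had IL-2 and blocked IL-4, and all had been stimulated through CD3/CD28 at the start. The labels do not say how many mice or separate cultures stood behind each array.

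Cyclic AMP is made by adenylyl cyclases when a receptor coupled to the stimulatory G protein is bound by its ligand, and it acts through protein kinase A and Epac. Phosphodiesterases end the signal by hydrolysing cyclic AMP. In T cells the nucleotide is known as a brake on antigen receptor signalling, and protein kinase A also phosphorylates CREB, a transcription factor that binds cyclic AMP response elements and drives genes such as Crem. Prostaglandin E2 and vasoactive intestinal peptide (VIP) are among the ligands that raise cyclic AMP in lymphocytes.

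Because the pathway ends on the cyclic AMP response element, the RefSeq promoters of the members (build GRCm38.p6) were searched on both strands for the full element, TGACGTCA, and for its short core, TGACG, which the full element contains. Reported are 12 promoters for 5 of the 8 members (Pde2a, Pde4b, Pde4d, Ptger4 and Vipr1), and the 250 bases before each start were searched. No promoter of Pde3b, Pde7a or Crem is reported here, so the counts do not cover those genes. The full element was in 0 of the 12, against 1.55% of 32851 mouse promoters of that length. The short core was in 2 of the 12, against 17.8% of all promoters. Both matches are shown, with the core in capitals as it reads on the other strand, together with the most upstream promoter of Pde2a, the gene whose profile was nearest to that of Vipr1, which has no match. Each run is the plus strand of its chromosome, 5′ to 3′, and all 3 genes lie on that strand.

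Vipr1, chr9:121642466-121642715: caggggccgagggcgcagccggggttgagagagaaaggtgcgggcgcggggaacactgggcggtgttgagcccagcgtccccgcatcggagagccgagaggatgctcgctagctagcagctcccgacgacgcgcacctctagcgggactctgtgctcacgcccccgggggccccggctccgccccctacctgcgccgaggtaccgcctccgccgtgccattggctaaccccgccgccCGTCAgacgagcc
Pde4b, chr4:102421305-102421554: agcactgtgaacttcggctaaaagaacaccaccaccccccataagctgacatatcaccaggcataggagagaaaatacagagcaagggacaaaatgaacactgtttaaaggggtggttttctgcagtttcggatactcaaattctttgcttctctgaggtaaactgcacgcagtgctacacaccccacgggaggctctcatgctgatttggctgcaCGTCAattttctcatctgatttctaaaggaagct
Pde2a, chr7:101421441-101421690: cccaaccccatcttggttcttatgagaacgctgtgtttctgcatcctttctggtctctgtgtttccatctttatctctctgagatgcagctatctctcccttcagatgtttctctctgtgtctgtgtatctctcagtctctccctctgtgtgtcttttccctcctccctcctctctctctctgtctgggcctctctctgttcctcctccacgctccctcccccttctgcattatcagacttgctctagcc

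The core began 13 bases before the start in Vipr1 and 34 bases before it in Pde4b. A match is a description of these letters, and which start each culture used was not measured. The Vipr1 promoter held 72.8% G and C, the Pde4b promoter 46.0% and the Pde2a promoter 50.8%, with a median of 52.4% over all promoters.

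All arrays held the same design, and the values below are the software's background-subtracted signal, or its log2 after each array was set to 0 at its own 75th percentile (the scaled log2 signal). That percentile was a signal of 144 on the rested array and between 198 and 306 on the others, so the 2 scales can order the cultures differently. From 45.7% to 48.7% of spots were well above background. Repeat spots of 1 probe on 1 array varied with a median SD of 0.0509 to 0.0611 log2 units where the signal was at least 100, and of 0.167 to 0.203 below that. Every member has a single spot per probe, so a difference between 2 arrays carries a technical SD of about 0.08, and up to 0.25 for the dimmest Vipr1 values. This covers the spots alone and nothing of the spread between cultures. Of the CD4 T cell list, 8 of 8 genes were well above background on every array, as were 50.2% of all genes measured. Apart from Cd4 (signal 4670 to 11300), these genes do not tell CD4 from CD8 T cells. Cd8b1 was also well above background on every array, with signals of 46.1 to 126.

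Markers of other cells were mixed. B cell genes were well above background in 3 or 4 of 7 cases per array, and Cd79a and Pax5 in none. Their summed scaled signal was highest in rested cells (5.70) and lowest in Th1reg (1.11) and Th1 (1.33), with 3.06 in Th1+TGFb and 2.63 in iTreg. Myeloid genes were well above background in 4 to 6 of 9 cases, with a sum of 1730 in rested, 1130 in Th1+TGFb, 901 in iTreg, 552 in Th1 and 396 in Th1reg, nearly all of it from the probes of Itgam, Siglech and Csf3r. Those probes were bright on all 5 arrays, from 14800 to 66300 for Itgam, while for Lyz2, S100a8 and S100a9 no array had a signal well above background, so it is not known whether the sum reads myeloid cells. CD8 T and NK genes numbered 2 or 3 of 6 per array (sums of 1.79 to 11.2) and platelet and endothelial genes 2 of 6 (4.02 to 7.21). The CD8 T and NK sum was lowest in iTreg cells. Even so, Cd8a was well above background in iTreg cells alone (signal 222), and Klra8 on every array but that one. The B cell and myeloid sums were thus higher in rested cells than in Th1 and Th1reg cells, as were Pde2a, Pde3b and Vipr1 below. Both sums were also higher in Th1+TGFb than in iTreg cells, as was Pde3b, whereas Pde2a and Vipr1 were lower there. The part of other cells in those values was not tested.

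The 8 members were all well above background on all 5 arrays, as were 10725 genes, 50.2% of those measured. Between their lowest and highest culture they spanned from 1.09 log2 units (Pde4d) to 9.54 (Vipr1), where the median gene spanned 1.29. Vipr1 had a wider range than all but 3 of those 10725 genes and Pde2a than all but 27, as the choice of these genes fixed. Of the members not picked that way, Crem spanned more than 96.7% of genes, Pde3b more than 94.1%, Pde4b more than 87.6%, Ptger4 more than 82.1%, Pde7a more than 73.9% and Pde4d more than 39.0%. In whole cultures of this kind, fewer cells with a transcript and less of it per cell cannot be told apart.

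**Figure D1:**
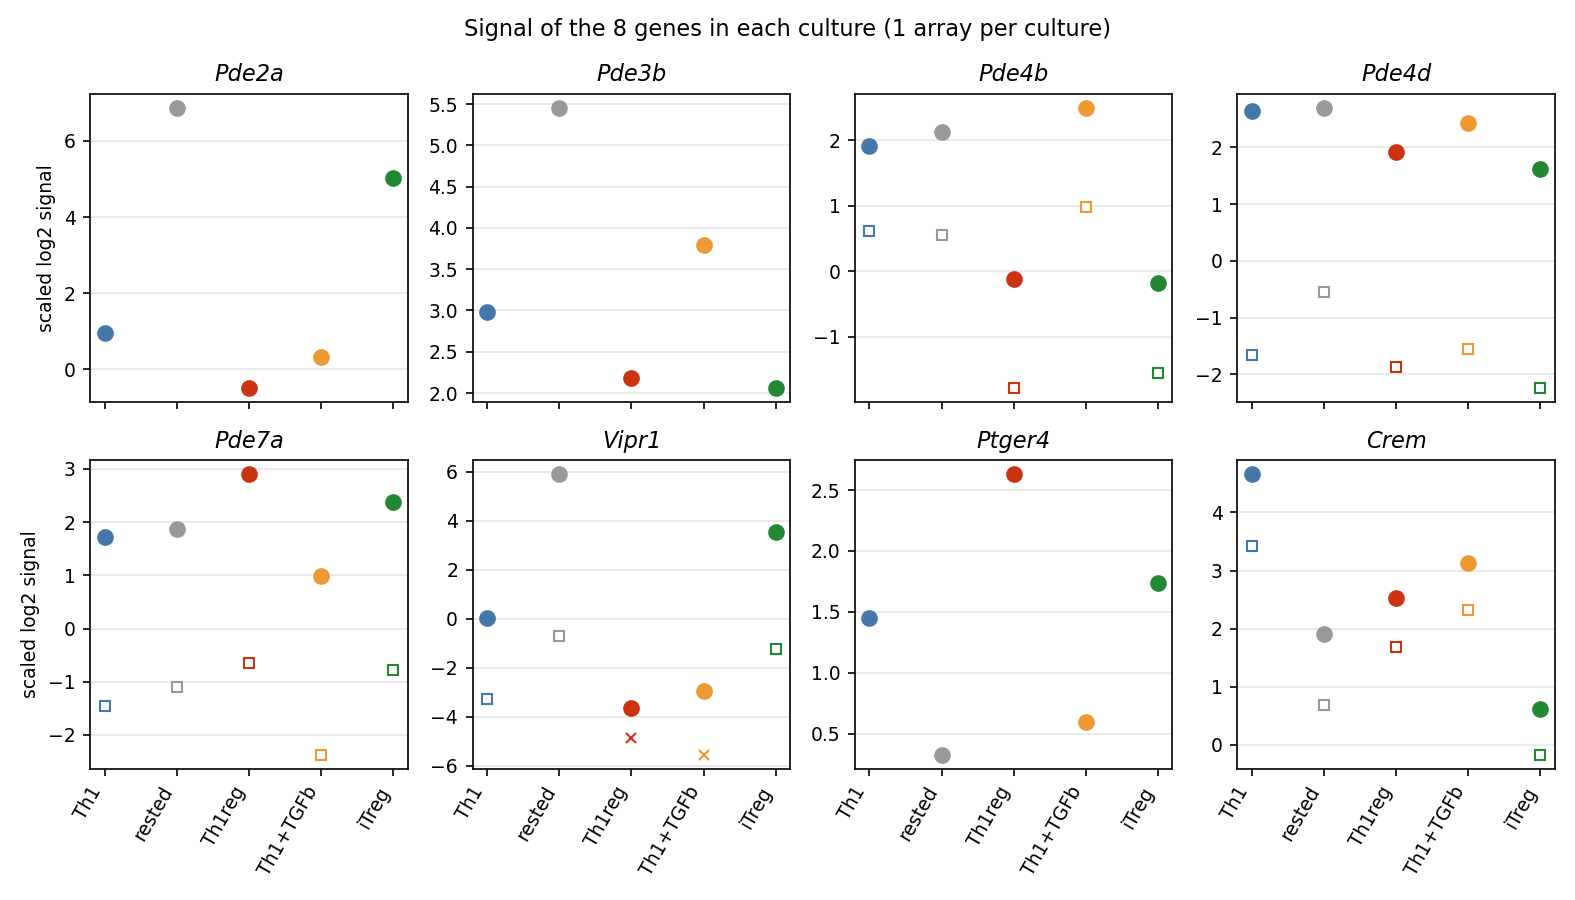
Scaled log2 signal (vertical axis, 0 is the array's 75th percentile) of each of the 8 members in the 5 cultures, 1 array each, with a vertical scale of its own in each panel. Filled circles are the probe that stands for the gene, open squares its other probes, and a cross marks a value not well above background. Pde2a and Vipr1 stand at 6.88 and 5.90 in rested cells and at -0.50 and -3.63 in Th1reg cells, Crem is highest in Th1 (4.66), and Pde7a and Ptger4 are highest in Th1reg (2.90 and 2.63).

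Vipr1 encodes the VIP receptor VPAC1, which also binds the related peptide PACAP and couples to the stimulatory G protein. Its signal was 247 in Th1, 8640 in rested, 25.9 in Th1+TGFb, 24.7 in Th1reg and 3170 in iTreg cells. On the scaled log2 axis the order was rested (5.90), iTreg (3.55), Th1 (0.05), Th1+TGFb (-2.94) and Th1reg (-3.63). Rested and iTreg cells were thus high and both cultures that went from Th1 cells into the iTreg condition were near the lowest signal the arrays could resolve. There the software put the error of the signal at 17.8% (Th1+TGFb) and 20.5% (Th1reg), so folds against those 2 arrays are imprecise. A second probe read 24.8 in Th1, 89.6 in rested and 116 in iTreg cells, and was not well above background in Th1+TGFb (4.27) and Th1reg (10.6). That probe gave rested cells 6.00-fold more than Th1 cells, where the main probe gave 57.9-fold, and at least 9.68-fold more than Th1reg cells. Once scaled, rested cells (-0.69) were above iTreg cells (-1.22) with this probe too, so both probes place the same 2 cultures highest and the same 2 lowest and differ in the size of each fold.

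Ptger4 encodes EP4, a prostaglandin E2 receptor that also signals through the stimulatory G protein. Its signal was 654 in Th1, 181 in rested, 301 in Th1+TGFb, 1900 in Th1reg and 908 in iTreg cells. Scaled, it ran from 2.63 in Th1reg through 1.74 in iTreg, 1.45 in Th1 and 0.60 in Th1+TGFb to 0.33 in rested cells, and each step was larger than 2 technical SDs. Its lowest culture was the one in which Vipr1 was highest. Its highest, Th1reg, was 1 of the 2 cultures in which Vipr1 was near the lowest signal the arrays could resolve. The iTreg, Th1 and Th1+TGFb cells, however, stood in the same order for both genes. Vipr1 had also been picked for its difference with rest, so nothing is read from this.

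Pde2a encodes an enzyme that hydrolyses cyclic AMP and cyclic GMP and is itself stimulated by cyclic GMP. Its signal was 458 in Th1, 17100 in rested, 246 in Th1+TGFb, 217 in Th1reg and 8780 in iTreg cells. The scaled values were 0.94, 6.88, 0.31, -0.50 and 5.02 in that order. Rested and iTreg cells stood far above the other 3 cultures, which lay within 1.43 log2 units of each other.

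Pde3b, a cyclic AMP phosphodiesterase that cyclic GMP inhibits, had signals of 1890 in Th1, 6350 in rested, 2740 in Th1+TGFb, 1380 in Th1reg and 1130 in iTreg cells. Scaled, these were 2.98, 5.46, 3.79, 2.18 and 2.06. Rested cells were highest again, but here iTreg cells were among the lowest, and Th1reg and iTreg cells differed by 0.12, less than 2 technical SDs.

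Pde4b and Pde4d encode cyclic AMP-specific enzymes of the family that rolipram inhibits. Pde4b had signals of 908 in Th1, 628 in rested, 1120 in Th1+TGFb, 283 in Th1reg and 239 in iTreg cells, or 1.92, 2.12, 2.50, -0.11 and -0.18 when scaled. The cultures split into 3 high and 2 low ones, and the 2 low ones, Th1reg and iTreg, were 0.07 apart, within 2 technical SDs. Another Pde4b probe gave the same split, with 369 in Th1, 393 in Th1+TGFb and 211 in rested against 89.2 in Th1reg and 92.8 in iTreg cells, and 1 further probe had no signal well above background.

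Pde4d varied least, with signals of 1490 in Th1, 936 in rested, 1060 in Th1+TGFb, 1150 in Th1reg and 825 in iTreg cells. Its scaled values were 2.64, 2.70, 2.42, 1.91 and 1.61, and the rested and Th1 values were 0.05 apart. Its probes disagree: another one read 75.6 in Th1 and 98.5 in rested cells, which is a scaled difference of 1.11 where the main probe gave 0.05. A further probe, for a predicted transcript of the gene, had no signal well above background.

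Pde7a encodes a cyclic AMP-specific enzyme that rolipram does not inhibit. Its signal was 789 in Th1, 528 in rested, 392 in Th1+TGFb, 2280 in Th1reg and 1400 in iTreg cells, or 1.72, 1.87, 0.98, 2.90 and 2.37 when scaled. It was highest in Th1reg and lowest in Th1+TGFb cells, and the rested and Th1 values were 0.15 apart, within 2 technical SDs. A probe for another transcript of the gene also put Th1reg highest (195) and Th1+TGFb lowest (38.5).

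Crem encodes members of the CREB family that activate or repress cyclic AMP response elements, among them the repressor ICER, made from an internal promoter that cyclic AMP turns on. The signal was 6060 in Th1, 540 in rested, 1730 in Th1+TGFb, 1750 in Th1reg and 412 in iTreg cells. The scaled values were 4.66, 1.90, 3.13, 2.52 and 0.61, each apart from its neighbour in the order by more than 2 technical SDs. Th1 cells were highest by 1.53 and iTreg cells lowest by 1.30. Another probe for the same accession gave 2570, 231, 992, 983 and 241, the same order of the cultures once scaled, and a probe for a different Crem transcript had no signal well above background. The probes do not say which of the Crem proteins was made.

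With rest, 3 members were at least 2-fold higher in rested than in Th1 cells and 2 were at least 2-fold lower. Over all genes 44.1% passed 2-fold in this comparison, 17.5% higher and 26.6% lower, so a large share of the array differed and 5 of 8 members is not far from it. Pde2a was 61.7-fold and Vipr1 57.9-fold higher, as they were chosen to be. Pde3b was 5.56-fold higher (log2 difference 2.48), Crem 6.77-fold lower (-2.76) and Ptger4 2.18-fold lower (-1.12). Ptger4 lost 2-fold under 3 of the 8 other ways of processing the signals, with -0.60 as the smallest difference. Pde4b (0.20), Pde4d (0.05) and Pde7a (0.15) stayed close to 0 on this scale.

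When rested cells were put into the iTreg condition, 4 members were at least 2-fold lower in Th1reg than in rested cells and 2 were higher, where 47.6% of all genes passed 2-fold (20.0% lower, 27.6% higher). This comparison shares the rested array with the first one, so genes picked as high in rested cells are also low here. Vipr1 was 743-fold lower, Pde2a 167-fold, Pde3b 9.74-fold (log2 difference -3.28) and Pde4b 4.70-fold (-2.23). Ptger4 was 4.95-fold higher (2.31). Pde7a was 2.04-fold higher (1.03), and was under 2-fold with 4 of the 8 other settings and on its other probe (0.44). Crem differed by 0.61 and Pde4d by -0.78. Scaling by the spike-in control RNAs instead moved the median of all genes by 1.40 in this comparison and by -1.08 in the first, and with it Pde4b came to -0.83 here.

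The same condition without a rest left most members closer to Th1 cells. Between Th1+TGFb and Th1 cells, 0 members were higher and 2 lower by 2-fold, against 19.1% of all genes (11.3% higher, 7.76% lower). Vipr1 was 7.91-fold lower (log2 difference -2.98) and Crem 2.90-fold lower (-1.53). For Crem the mean of all its probes gave -0.81. The other 6 members differed by between -0.85 (Ptger4) and 0.80 (Pde3b).

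Set against rested cells, Th1+TGFb cells had 3 members at least 2-fold lower and 1 higher, where 26.3% of all genes passed (8.81% lower, 17.5% higher). Vipr1 was 458-fold, Pde2a 95.4-fold and Pde3b 3.19-fold lower, and Crem was 2.34-fold higher (log2 difference 1.23). Vipr1 and Pde2a had been chosen for large differences with rest, and this comparison shares the rested array, so their place in the count follows from the choice. Crem lost 2-fold under 3 other settings (smallest 0.89) and Pde3b under the spike-in scaling (-0.92). These are 2 branches from the same Th1 cells with the same days of culture, 1 with CD3/CD28 stimulation and TGF-b and 1 with neither.

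Th1reg and Th1+TGFb cells both ended in the iTreg condition and differed in the rest before it and in 4 days of culture. In Th1reg cells 2 members were higher and 2 lower by 2-fold, and 27.4% of all genes passed (12.3% higher, 15.1% lower). Ptger4 was 4.09-fold higher (log2 difference 2.03) and Pde7a 3.77-fold higher (1.92). Pde4b was 6.12-fold lower (-2.61) and Pde3b 3.06-fold lower (-1.61), the last only -0.96 with the spike-in scaling. Pde2a (-0.80), Vipr1 (-0.70), Crem (-0.61) and Pde4d (-0.50) differed by less than 2-fold.

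Over the whole route from Th1 to Th1reg cells, 6 of the 8 members passed 2-fold, against 14.8% of all genes (6.23% higher, 8.55% lower). Of these, 4 were lower, Vipr1 by 12.8-fold, Crem by 4.42-fold, Pde4b by 4.10-fold and Pde2a by 2.70-fold. Ptger4 was 2.27-fold and Pde7a 2.26-fold higher. This was the comparison in which the members' share lay farthest above that of all genes, and 5 of the 6 calls held under all 8 other settings. Pde7a fell just under 2-fold with the mean of all its probes, and its other probe alone gave a log2 difference of 0.81. Among the 8 here, Pde2a and Vipr1 were picked for another comparison with the same Th1 array. The members' median difference was -1.12, and that of all genes 0.01.

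iTreg cells differed from Th1 cells by 2-fold in 5 members, 2 higher and 3 lower, with 28.5% of all genes passing (10.8% higher, 17.7% lower). Pde2a was 16.9-fold and Vipr1 11.3-fold higher, and both had been picked for another comparison with the same Th1 array. Crem was 16.6-fold lower (log2 difference -4.06), Pde4b 4.30-fold lower (-2.10) and Pde4d 2.05-fold lower (-1.04). The Pde4d value lost 2-fold under 6 of the 8 other settings. These cultures had the same number of days and differed in the cytokines and blocking antibodies, and 6 of 8 CD4 T cell markers were themselves at least 2-fold lower in iTreg cells.

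Th1reg and iTreg cells, both from the iTreg condition, differed by 2-fold in 3 members, with 27.8% of all genes passing (15.7% higher, 12.1% lower). Vipr1 was 145-fold and Pde2a 45.7-fold lower in Th1reg cells, and Crem was 3.76-fold higher (log2 difference 1.91). Pde3b (0.12) and Pde4b (0.07) differed by less than 2 technical SDs, and Pde4d (0.31), Pde7a (0.53) and Ptger4 (0.89) by less than 2-fold.

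**Figure D2:**
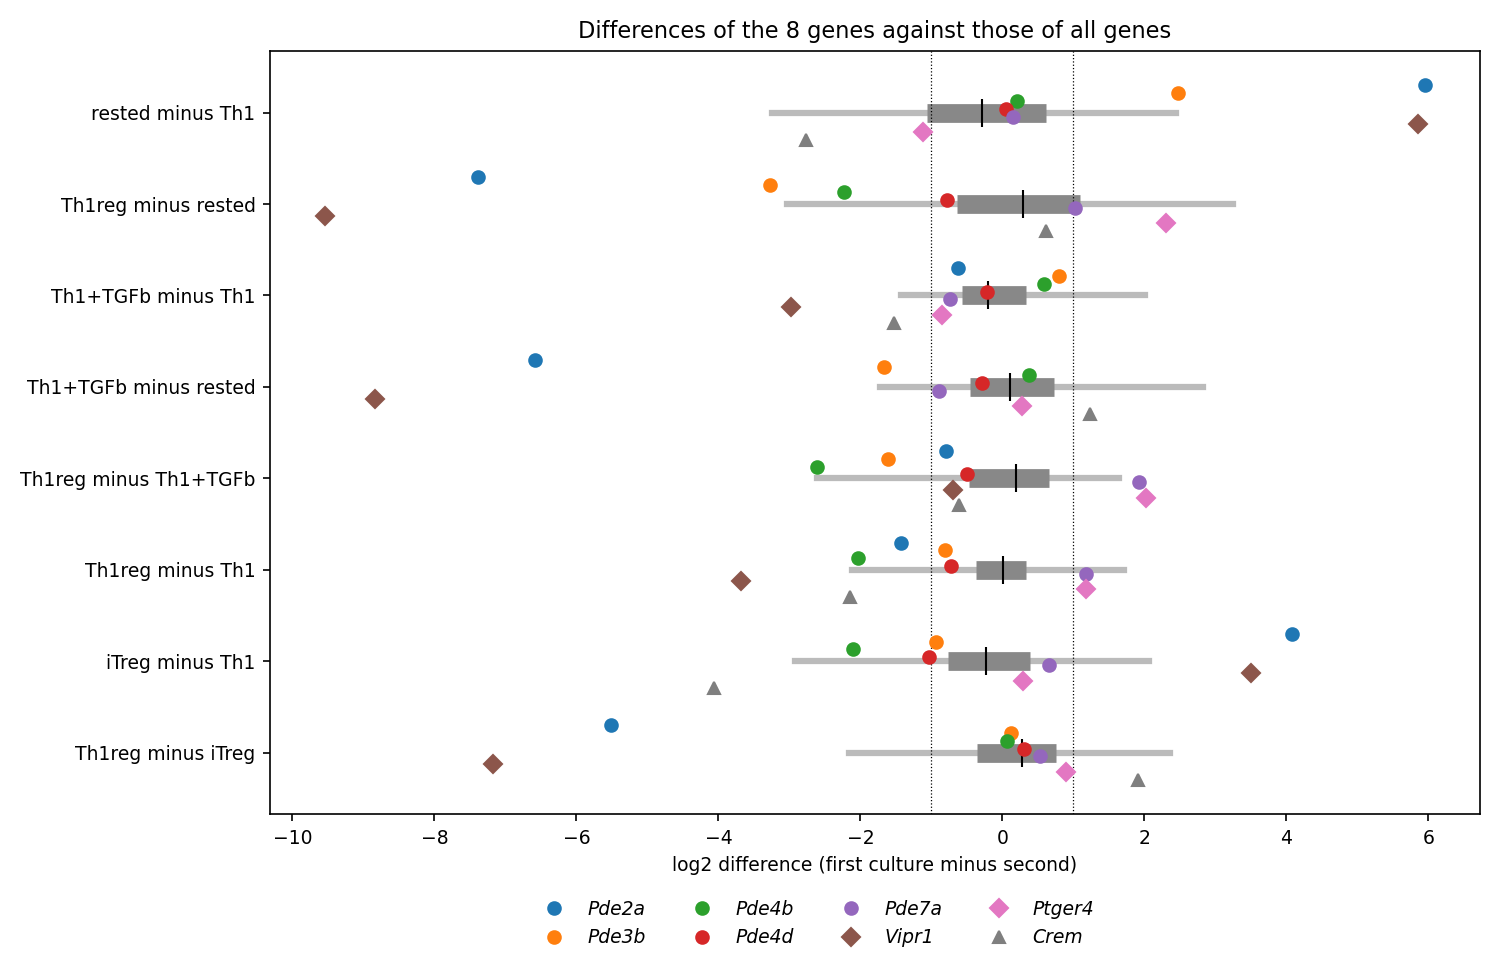
Log2 difference (horizontal axis) of the 8 members, as coloured points, in each of the 8 comparisons, over the spread of all genes compared. The thin grey bar holds the central 95% of genes, the thick bar the central 50%, the tick is their median, and dotted lines mark 2-fold. Vipr1 and Pde2a lie at the far end wherever the rested or iTreg array is compared with another culture, and Pde4d lies within 1.04 log2 units of 0 in all 8.

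The effect of the iTreg condition could be set side by side for its 2 starting points, Th1 cells (Th1+TGFb minus Th1) and rested cells (Th1reg minus rested). For 5 of the 8 members the 2 differences had opposite signs. The share of all genes with opposite signs was not counted. The medians of all genes were themselves opposite, at -0.2 from Th1 cells and 0.29 from rested cells. The count is therefore not read as a trait of the members. Pde3b differed by 0.80 from Th1 cells and by -3.28 from rested cells, and Pde4b by 0.58 and -2.23. Pde7a differed by -0.74 and 1.03, Ptger4 by -0.85 and 2.31, and Crem by -1.53 and 0.61. Pde2a (-0.63 and -7.38), Vipr1 (-2.98 and -9.54) and Pde4d (-0.22 and -0.78) were lower from both. The 5 opposite pairs were opposite under all 8 other settings as well, whereas Pde4d became opposite under 4 of them. The 2 differences share no array, but they have no replicates and their contrast was not tested. They also do not hold the same change, since the step from rested cells included a return of the CD3/CD28 stimulus, which Th1 cells already had.

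**Figure D3:**
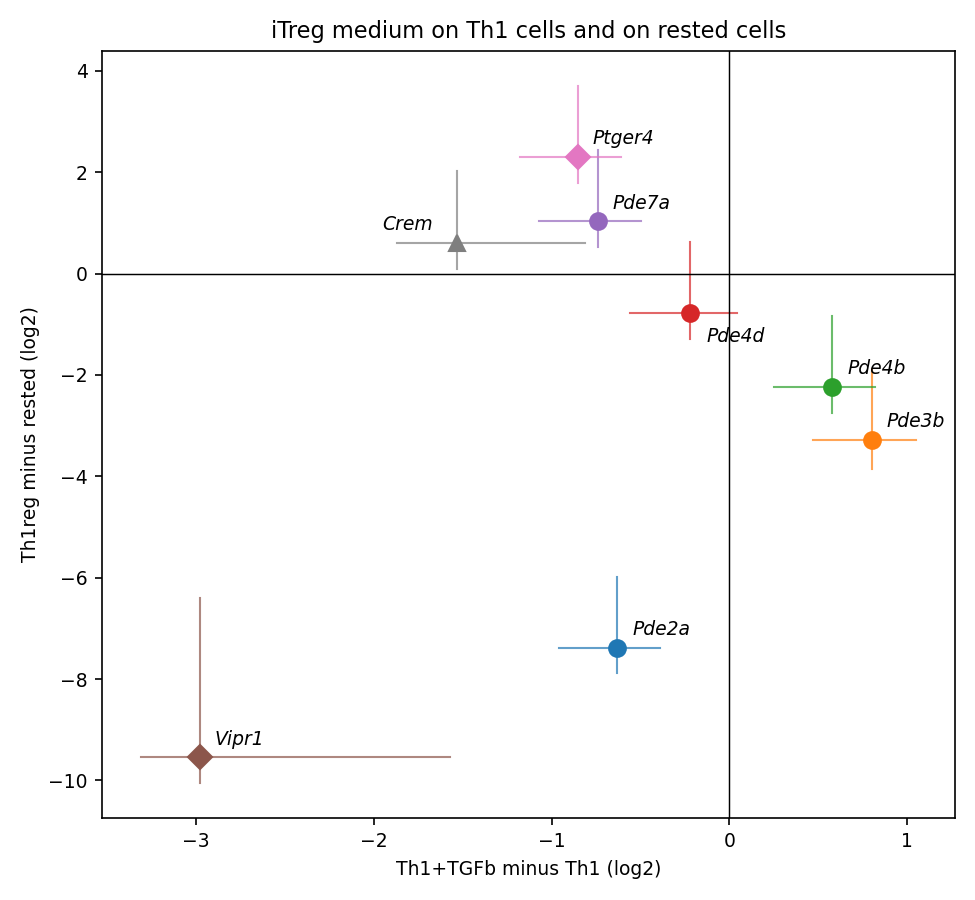
Log2 difference made by the iTreg condition in each of the 8 members, from Th1 cells (horizontal axis) and from rested cells (vertical axis), 1 array per culture. Lines show the range over the 8 other settings. Pde7a, Ptger4 and Crem lie left of 0 and above it, and Pde3b and Pde4b right of 0 and below it.

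The rest of the pathway was taken from lists of genes by role. On the ligand side, Vip, Adcyap1 and the inducible cyclooxygenase gene Ptgs2 had no signal well above background. Ptgs1, the other cyclooxygenase gene, was well above background in Th1reg cells alone (signal 270), at least 8.26-fold above rested and at least 11.1-fold above Th1 cells. Of 9 ligand supply genes 4 could be compared between Th1reg and rested cells. By 2-fold 3 were higher and 1 lower, against 27.6% and 20.0% of all genes. The cytosolic prostaglandin E synthase gene Ptges3 was 2.81-fold and Ptges2 2.77-fold higher there, within 2-fold under 2 settings (lowest 0.91) and 1 setting (0.95). Over the other settings these counts ran from 1 to 3 higher and from 0 to 3 lower.

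Among 15 other receptors coupled to the stimulatory G protein, 14 had a probe and 7 were not well above background anywhere. Vipr2, the gene of the second VIP receptor, was well above background in Th1+TGFb (signal 320) and Th1reg cells (495) and on no other array. These are the 2 cultures in which Vipr1 was lowest. Vipr2 was at least 20.4-fold higher in either than in Th1 cells and at least 15.1-fold higher than in rested cells. Of its 3 probes 1 was never well above background and 1 only in Th1+TGFb cells. With the mean of all its probes the log2 difference between Th1reg and rested cells was 0.82, under 2-fold.

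The adenosine receptor gene Adora2b had signals of 461 in Th1, 1180 in Th1+TGFb, 569 in Th1reg and 62.6 in iTreg cells, and was not well above background in rested cells (3.89). Its log2 difference between rested and Th1 cells was -4.17, a lower bound of the size. Adora2a, the other adenosine receptor gene of this class, was highest in Th1 (1730) and lowest in Th1reg cells (212), a 10.4-fold difference. Gpr65, a receptor that senses protons, had 5430 in Th1, 5410 in Th1+TGFb and 3050 in Th1reg cells against 414 in rested and 413 in iTreg cells. Across the list, 4 of 7 genes compared were higher and 2 lower in Th1reg than in rested cells (all genes 27.6% higher, 20.0% lower). In iTreg against Th1 cells, 4 of 6 were lower and 0 higher (all genes 17.7% lower, 10.8% higher). Under the other settings these counts ran from 3 to 4 higher and 2 to 5 lower in the first, and from 0 to 1 higher with 4 lower in the second.

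Of the stimulatory and inhibitory G protein subunits, Gnal stood out at 964 in Th1 cells and between 29.3 and 175 in the other cultures, 19.9-fold lower in rested and 25.5-fold lower in iTreg cells. Gnas, which encodes the main stimulatory subunit, was 3.12-fold lower in rested than in Th1 cells and in Th1reg cells 2.55-fold above rested cells, within 2-fold under 2 and 3 of the 8 other settings.

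Of the 10 adenylyl cyclase genes, 4 were well above background on every array by the probe standing for the gene, and another probe of Adcy5 was so in Th1reg cells alone. Adcy6 had signals of 1720 in Th1, 7870 in rested, 5730 in Th1+TGFb, 595 in Th1reg and 3340 in iTreg cells. It was 7.60-fold higher in rested than in Th1 cells, 28.0-fold lower in Th1reg than in rested cells and 3.69-fold lower in Th1reg than in Th1 cells. Rested cells were highest and Th1reg cells lowest, as for Pde2a. Vipr1 was also highest in rested cells, and near the lowest signal resolved in both Th1reg and Th1+TGFb cells. On the scaled axis the 5 cultures of Adcy6 stood in the order of the B cell and myeloid sums given above. So did those of Pde6a, Akap7 and Crebbp, named below, each by the probe standing for the gene. The part of other cells in these values was not tested. Adcy9 was highest in iTreg cells (1000, against 108 to 152 elsewhere), 8.19-fold above Th1. Adcy7 was 3.20-fold higher in rested than in Th1 cells. Rested cells had 3 of the 4 genes higher by 2-fold than Th1 cells and 0 lower, against 17.5% and 26.6% of all genes. Under the other settings 1 to 4 were higher and 0 to 1 lower.

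Of 11 genes for protein kinase A, its inhibitors and Epac, 9 were compared. Rapgef3, the gene of the cyclic AMP sensor Epac1, had 378 in Th1 and 206 in rested cells against 82.7 in Th1+TGFb, 50.3 in Th1reg and 81.8 in iTreg cells. It was lower in all 3 cultures of the iTreg condition, by 9.61-fold in Th1reg against Th1 cells. The regulatory subunit gene Prkar1b was highest in iTreg (527) and Th1reg cells (269), and Prkar2b in Th1reg (738) and iTreg cells (344). In Th1reg cells they stood 4.50-fold and 3.91-fold above rested cells. Prkar1a, the most widely used regulatory subunit gene, was 3.45-fold lower in rested than in Th1 cells. That value rests on 1 probe, as another Prkar1a probe had scaled values of 1.67 in Th1 and 1.45 in rested cells. In the list as a whole, 1 gene was higher and 4 lower in rested than in Th1 cells (all genes 17.5% higher, 26.6% lower). In Th1reg against rested cells 4 were higher and 2 lower (all genes 27.6% higher, 20.0% lower). Under the other settings the counts ran from 0 to 1 higher and 1 to 7 lower in the first comparison, and from 4 to 7 higher and 1 to 2 lower in the second.

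Among 10 A-kinase anchor protein genes, which tether the kinase, 8 were compared. Akap7 was 7.46-fold lower and Akap1 3.96-fold higher in Th1reg cells, both against rested cells. The Akap7 value rests on 1 of its probes, since the mean of all of them gave a log2 difference of -0.85, and Akap1 came to 0.94 with normexp background correction. Akap12 was 5.40-fold higher in rested than in Th1 cells. Among the 7 CREB factors and coactivators, 3 were just over 2-fold higher in rested than in Th1 cells, against 17.5% of all genes. These were Crebbp (2.24-fold), Crtc3 (2.21-fold) and Crtc1 (2.01-fold). With the spike-in scaling 0 of the 7 were higher and 4 lower.

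Of 11 genes that CREB is known to drive, 6 were at least 2-fold lower and 0 higher in rested than in Th1 cells, where 26.6% of all genes were lower, and the list's median was -1.24 (all genes -0.29). The other 5 did not pass, with log2 differences of -0.79 for Per1, -0.59 for Dusp1 and -0.56 for Sik1, a bound of -0.53 for Areg, and no direction for Fosb. In Th1reg cells 7 were higher and 0 lower than in rested cells (median 1.46, all genes 0.29, with 27.6% higher), and in Th1+TGFb cells 8 were higher and 0 lower than in rested cells (2.16, all genes 0.11, with 17.5% higher). Under the other settings these counts ran from 5 to 10 lower, from 5 to 9 higher (0 to 2 lower) and from 7 to 10 higher. Nr4a1 had signals of 26600 in Th1, 104 in rested, 22900 in Th1+TGFb, 51300 in Th1reg and 26400 in iTreg cells. It was 155-fold lower in rested than in Th1 cells. Nr4a2 was 17.7-fold and Fos at least 6.18-fold lower. Many genes on this list also answer to the antigen receptor, and rested cells were the only culture whose last 4 days had no CD3/CD28 stimulus. In iTreg cells 6 of the 11 were lower and 1, Fosb (1.30), higher than in Th1 cells. The list's median there was -1.06 (all genes -0.23, with 17.7% lower and 10.8% higher). Nr4a1 (-0.19), Nr4a3 (0.69), Per1 (-0.47) and Areg (a bound of -0.92) did not pass. Rgs2, which encodes a regulator of G protein signalling, was 18.5-fold lower in iTreg and 9.92-fold lower in Th1reg than in Th1 cells.

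Of the 16 other phosphodiesterase genes, 5 had signals well above background throughout and 8 had none. Pde4a had 147 in Th1, 66.5 in rested, 258 in Th1+TGFb, 327 in Th1reg and 669 in iTreg cells, and was 4.02-fold higher in iTreg than in Th1 cells, where Pde4b was 4.30-fold lower. Pde6a was 5.33-fold higher in rested than in Th1 cells and 8.42-fold lower in Th1reg than in rested cells, and Pde1a was well above background in Th1 (96.2), Th1+TGFb (19.7) and Th1reg cells (41.6). In rested against Th1 cells 2 of the 8 genes compared were higher and 2 lower, with a median of 0.24. The shares of all genes were 17.5% higher and 26.6% lower. In Th1reg against rested cells 1 was higher and 3 lower (-0.45), against 27.6% and 20.0% of all genes.

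The cyclic GMP side bears on Pde2a and Pde3b, which that nucleotide stimulates and inhibits. Gucy1a1, Gucy1b1 and Gucy1a2 encode subunits of the soluble guanylyl cyclase. Gucy1a1 was well above background in Th1+TGFb (134), Th1reg (234) and iTreg cells (41.7), the 3 cultures of the iTreg condition, and in Th1reg cells it was at least 7.15-fold above rested cells. Gucy1b1 was at least 5.52-fold higher in the same comparison, with a log2 difference of 0.9 under normexp background correction. Gucy1a2 went the other way there, at least 2.58-fold lower (log2 difference -1.37), and lost 2-fold under 4 of the 8 other settings. Of the 5 genes of the cyclic GMP list compared, 2 were higher and 1 lower, against 27.6% and 20.0% of all genes. The efflux pump gene Abcc5 was 2.75-fold higher in iTreg than in Th1 cells, and Abcc4 did not pass 2-fold in any comparison.

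**Figure D4:**
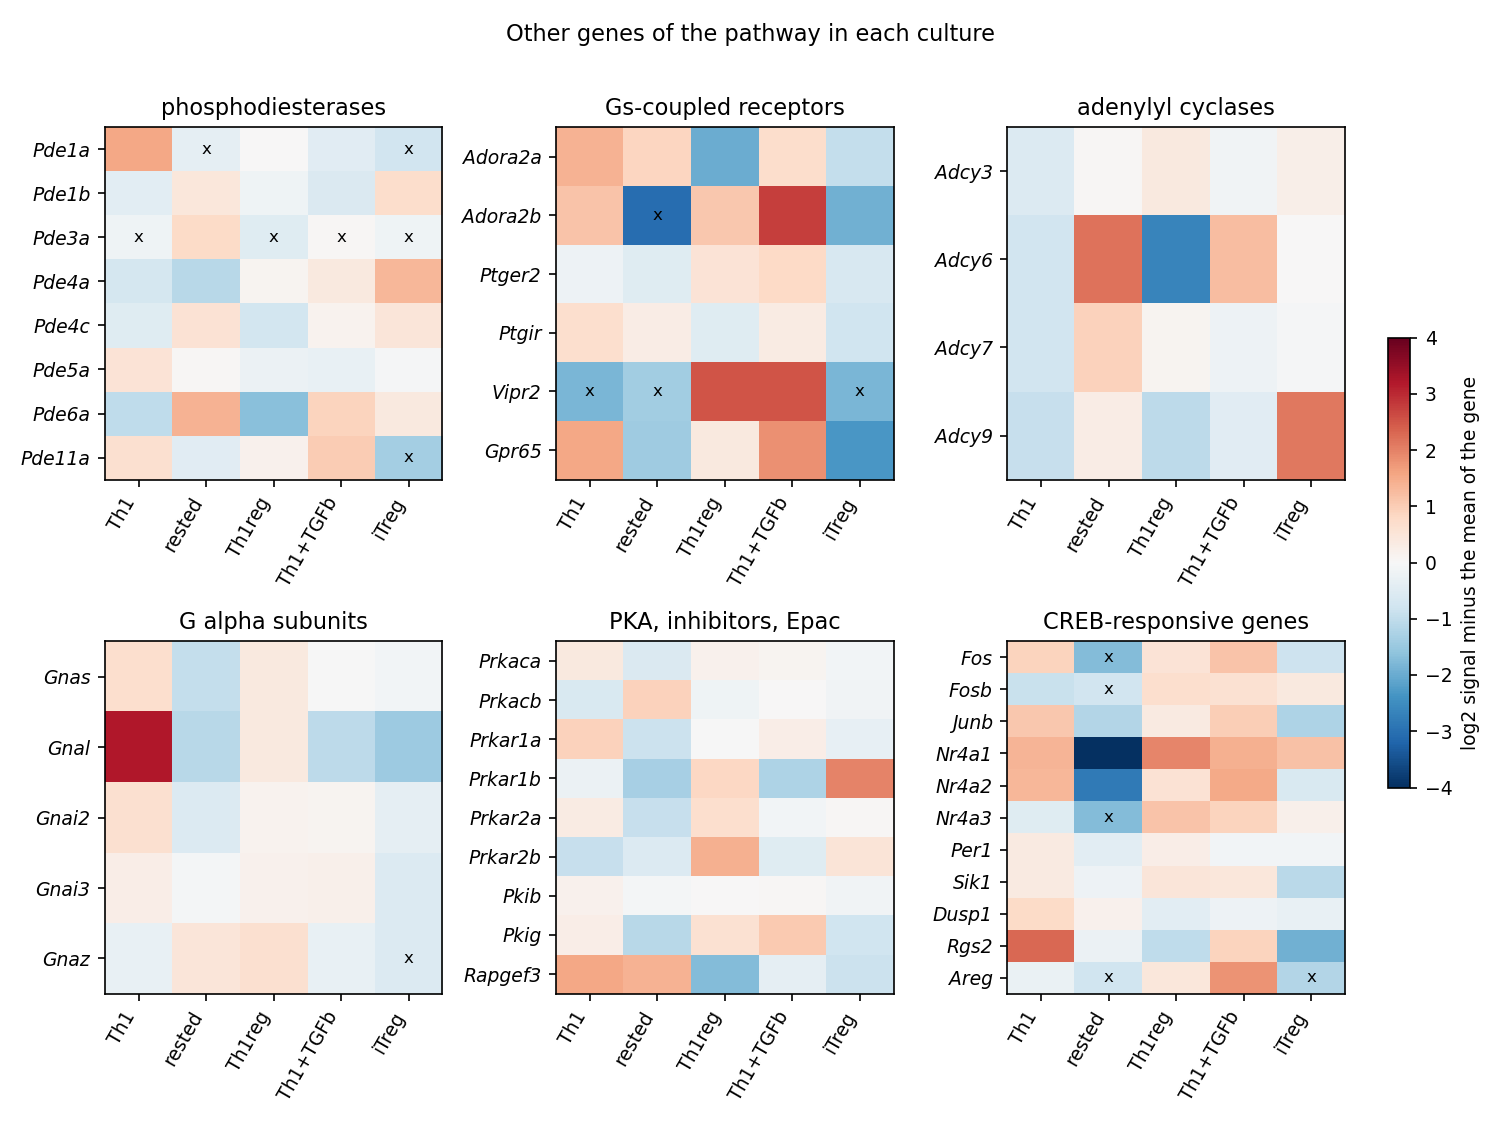
Scaled log2 signal minus the gene's own mean over the 5 arrays (colour) for genes of 6 pathway lists (rows) in the 5 cultures (columns). A cross marks a value not well above background, and genes never above it, or not reported here, are left out. The rested column is low for Nr4a1, Nr4a2 and Gpr65 and high for Adcy6, and Vipr2 is without a cross in Th1+TGFb and Th1reg alone.

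For each member the genes with the nearest profile were taken from 10292 named genes well above background on all 5 arrays, by the root mean square (RMS) difference of the 5 scaled log2 values after each gene's mean was removed. Nearest to Vipr1 was Pde2a (1.04), then Tdrp and Klf2 (both 1.24). Nearest to Pde2a were Tdrp (0.50), Klf2 (0.65) and Klf3 (0.84), and Vipr1 came at rank 4. Since Pde2a and Vipr1 were both chosen for a large difference with rest, the choice itself brings their profiles close, and nothing is read from it. Klf2 and Klf3 encode Krüppel-like factors.

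The other members had closer neighbours. Pde3b was nearest to Ahnak (0.16), Gbp6 (0.18) and Ddx25 (0.20), and Pde4b to Maml2 (0.24), Aldh1l1 (0.30) and Tmem140 (0.31). Pde4d lay within 0.09 of Tnfsf12, Tgoln1 and Letm2. Pde7a was nearest to Ubtd2 (0.14), Zfp365 and Ccnh (both 0.18). Ptger4 was nearest to the DNA methyltransferase gene Dnmt3a and to Ppid (both 0.12), then Nedd1 (0.14). Crem was nearest to Kcnk7 (0.18), Gprc5a (0.21) and Armcx3 (0.31). Apart from Pde2a and Vipr1 no member had another member among its nearest 3, and the closest of the other pairs were Pde7a and Ptger4 (0.48). With 5 arrays these likenesses describe single cultures.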

How the data were processed

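RNA of 5 cultures was hybridised to 1-colour Agilent arrays, 1 array each, all on 1 slide with 1 scan time. The authors deposited the scanner output of Agilent Feature Extraction 10.7.1.1, per the file headers, whose processed signal is a linear intensity with the background subtracted and no scaling between arrays. The deposited series value table holds the same intensity divided by 1 constant per array: from 99.7% to 99.8% of probes lay within 0.01 log2 units of it, and each column's 75th percentile was 1.00. The column medians were 0.0762 (Th1), 0.103 (Th1+TGFb), 0.123 (rested), 0.0693 (Th1reg) and 0.0925 (iTreg), so its scale and direction are known and genes were not centred. The choice of the constants is not stated in the sources used here.

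Control spots and the 109 to 142 outlier spots per array were left out, and no spot was saturated. Each array held 62976 spots for 55681 probes. Signals were averaged per probe and log2 was taken relative to the array's 75th percentile over its spots. The percentile over probe averages was used in a first run, and was replaced after its values had been seen. The number of members past 2-fold was the same with both in all 8 comparisons. The percentile over probe averages remains in effect among the alternatives, as the series value table.

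Probes were named through RefSeq accessions (28331 of 55681 matched) in a GRCm38.p6 gene table, used for names because the array design is of build mm9. A gene with several probes was read from the one of highest mean signal. A value not well above background entered at the higher of itself and the array's lowest signal well above background, which makes the fold a lower bound ("at least"). A gene dim on both arrays was not compared. A gene was counted at 2-fold or more, which is a description and no test. The number of arrays limits the precision.

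The members, gene lists and comparisons were chosen with earlier results of these data known. From each list, up to 3 genes with the largest difference past 2-fold in a comparison could be named, and for each member the 3 nearest genes. Other genes given by their levels or absence were chosen after their values were seen. The difference step was tested on simulated data. Python 3.11.15 with pandas 2.3.3 and limma 3.58.1 in R 4.3.3 were used. The protein sequences of the members were not analysed here. Some genes of the lists are counted in the totals but not reported by name here.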

Additional observations from a re-analysis of the deposited data

Results flagged for a closer look

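For 5 members the iTreg condition went with opposite differences in its 2 starting cultures, rested cells and Th1 cells. How many of all genes did so was not counted. The effect on rested cells minus the effect on Th1 cells, in log2 units, was -4.08 for Pde3b, -2.81 for Pde4b, 1.77 for Pde7a, 3.16 for Ptger4 and 2.14 for Crem. Each effect is a difference of 2 single arrays, and the difference between the effects was not tested. The 2 effects also differ in the days of culture before them. From rested cells the iTreg condition brought back the CD3/CD28 stimulus, while Th1 cells had been under it already. The rest, the age of the culture and the return of the stimulus cannot be told apart.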

How the results depend on the processing

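The 8 other settings were the 75th percentile or the median of detected probes as the scale, the spike-in controls, quantile normalization, normexp background correction, the series value table, no filter and no floor, and the mean of all probes of a gene. Of the 64 member differences, 35 passed 2-fold. All 35 kept their sign under the 8 settings and 26 also kept 2-fold, while 11 of the other 29 passed 2-fold under some setting. The number of members past 2-fold stayed within 1.5-fold in 62 of 64 cases, and between Th1+TGFb and Th1 cells it went from 2 to 4 with the spike-in controls and to 1 with the mean of all probes. Counts in the pathway and marker lists stayed within 1.5-fold in 597 of 768 cases. With the spike-in controls the sign turned for Pde4c (0.11), Adcy9 (0.05) and Akap12 (0.02) in Th1reg minus rested, and for Crtc1 (-0.07) and Abcc5 (-0.03) in rested minus Th1. With the mean of all probes it turned for Akap7 (-0.16) in Th1+TGFb minus Th1. The cause was not tested. Other probes of the members gave the same sign in 36 of 39 differences and the same call in 27.

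Scaling also moved the share of higher genes among all genes past 2-fold. That share was 39.7% for rested against Th1 cells (7.69% to 65.4% over the other settings), 58.0% for Th1reg against rested (36.4% to 92.4%), 59.3% for Th1+TGFb against Th1 (26.7% to 78.7%) and 66.5% for Th1+TGFb against rested (44.7% to 94.7%). It was 44.8% for Th1reg against Th1+TGFb (27.4% to 83.7%), 42.1% for Th1reg against Th1 (39.4% to 66.8%), 37.8% for iTreg against Th1 (25.6% to 64.5%) and 56.5% for Th1reg against iTreg (31.0% to 73.4%).

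No paired analysis was possible because each culture had 1 array. The slide could not serve as a block, since all arrays lay on 1. Normexp used median spot signals. Signals near background limit the Vipr1 folds, and the spread between cultures is unknown.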
